A study of Drosophila melanogaster with 4 samples.

Results

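The genes described here were those on which 3 Drosophila larval head libraries with a glial tumour genotype stood on the same side of the Control library. A gene was taken as higher when its lowest scaled read count among the 3 glioma libraries was at least 2-fold above Control. It was taken as lower when its highest was at least 2-fold below Control. At least 10 counts in 1 or more of the 4 libraries were required, and genes that met this are called detected. Of 11880 listed genes 11534 were detected, and the rule took 459 of them, 3.98% of those detected. The 316 genes taken as higher were 2.74% of detected genes and the 143 taken as lower were 1.24%. These shares come from the same contrast that chose the genes, so nothing is read from them here. Each count of list members below is to be set beside them.

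Glioma larvae carried UAS-dEGFR[L] and UAS-dp110[CAAX], constructs for a form of the EGF receptor and for a membrane-tethered catalytic subunit of PI3K. Glioma with Ca-alpha1T RNAi carried UAS-Ca-alpha1T-RNAi as well, which targets a T-type voltage-gated calcium channel. Glioma with slo RNAi carried UAS-Slo-RNAi instead, which targets a calcium-activated potassium channel. Control larvae had none of these constructs. All 4 groups shared tub-Gal80[ts], repo-Gal4 and UAS-myrRFP, so a membrane-bound red fluorescent protein was made in glia of every group, Control included. The repo driver acts in glia, and Gal80[ts] is a repressor that fails at the higher temperature. Eggs were laid for 3 days at 25 °C, and larvae were then held for 5 days at 29 °C before dissection. Larvae of a library could thus differ in age, and their stage at dissection is not given. The labels put all samples in a single batch. Each group was 1 library of poly-A RNA from larval heads, and the number of larvae in a library is not given. The 3 glioma libraries differ in genotype and are no replicates. There was therefore no test and no p-value for any difference below. A 95% exact counting interval was computed for each ratio and is printed for some of them. It covers counting error only and leaves out variation between larvae or libraries of the same genotype. It may be too narrow even for counting error, since PCR copies are not independent molecules.

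In the fly, glia insulate neurons and build the blood-brain barrier, and the transcription factor Repo marks nearly all of them. EGFR signals through Ras and MAP kinase, while PI3K signals through Akt and TOR, and activating both in glia is an established fly model of glioma. The end of larval life is timed by pulses of the steroid hormone ecdysone. In response to these pulses the salivary glands make glue proteins, the epidermis prepares a new cuticle, and dopamine-derived compounds harden and colour that cuticle.

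Total counts ranged from 31594447 in Glioma with Ca-alpha1T RNAi to 38826243 in Glioma, and levels are given as CPM, the counts of a gene relative to its TMM-scaled library size. Over all detected genes the median log2 ratio to Control was 0.00 in Glioma, −0.01 under Ca-alpha1T RNAi and −0.00 under slo RNAi. The smallest count of any listed gene was 1 in each library, so the table cannot show a marker with no counts. Marker genes of muscle and gut had high levels, so the samples held more than brain. The neuronal gene nSyb stood at 62.1 CPM in Glioma, 62.2 CPM under Ca-alpha1T RNAi and 67.3 CPM under slo RNAi, against 62.4 CPM in Control, and values are given in this order of libraries from here on. Another neuronal gene, elav, stood at 65.3, 112 and 108 CPM, against 116 CPM in Control. The muscle gene Mhc stood at 8497, 3116 and 4580 CPM, against 2181 CPM in Control. The gut protease gene Jon65Aiv stood at 11395, 5534 and 4010 CPM, against 8026 CPM in Control. In such mixed samples fewer cells of a type and less RNA per cell cannot be told apart.

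The glioma library nearest to Control had a median log2 ratio of 1.38 over the 316 higher genes and of −1.49 over the 143 lower ones. A ratio of at least 4-fold in all 3 libraries was reached by 50 higher and 39 lower genes, and one of at least 8-fold by 10 and 12. The higher genes were mostly low in Control, with a median of 32.5 counts there and 98 genes under 10 counts. The lower genes had a median of 823 counts in Control. None could be under 10 there, because Control had to be the highest library and 10 counts were required in 1 or more. A higher gene can meet that limit through a glioma library alone, so nothing is read from this contrast. Counting intervals are wide at low counts. With each of the 3 intervals required to lie wholly past 2-fold, 110 higher and 89 lower genes remained. With the authors' FPKM and a pseudocount of 1, the rule took 66 higher and 89 lower genes, so the higher share of the genes taken was 42.6% in place of 68.8%. With the authors' TPM and the same pseudocount it took 101 and 90, a higher share of 52.9%. Of 135 genes taken and chosen for naming, 71 passed on that FPKM scale and 75 on that TPM scale. All 3 ratios of a gene share the Control library, so an unusual Control value moves them together.

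**Figure D1:**
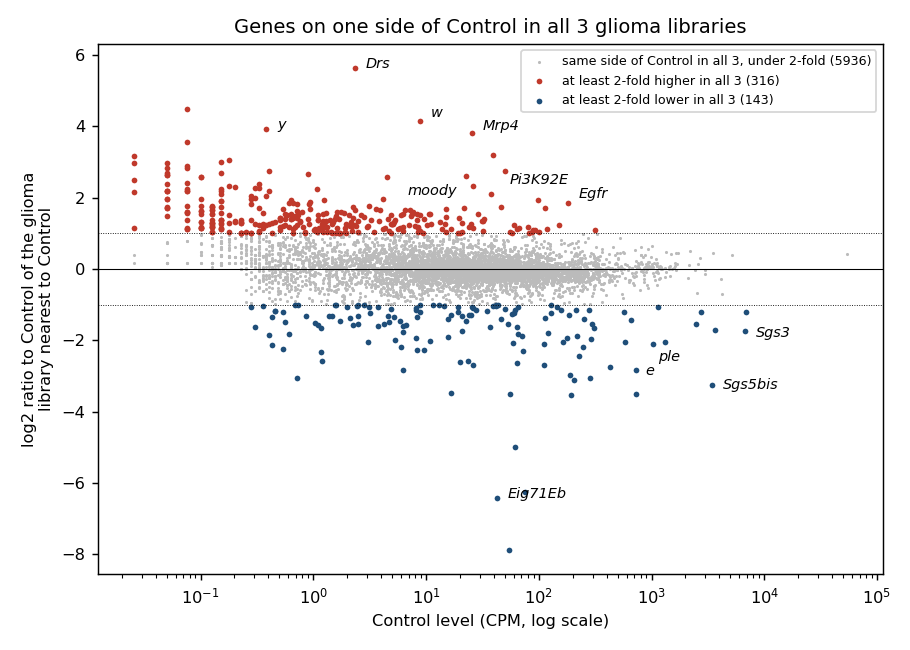
Each point is 1 detected gene on which all 3 glioma libraries lay on the same side of Control, with the Control level on a log axis (CPM) and, vertically, the log2 ratio to Control of the glioma library nearest to it. Red points are the 316 higher genes, blue points the 143 lower genes and grey points the 5936 genes under 2-fold, and the dotted lines mark 2-fold. Red points crowd at the left, at low Control levels, and blue points reach further from 0.

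The construct genes came first among those with a known manipulation. Egfr, the receptor gene, stood at 897, 962 and 651 CPM in the glioma libraries, against 182 CPM in Control. Its log2 ratios were 2.31 (2.27 to 2.34), 2.41 (2.37 to 2.44) and 1.84 (1.80 to 1.88). Pi3K92E, which encodes the PI3K subunit dp110, stood at 903, 880 and 373 CPM, against 98.6 CPM in Control. The slo RNAi library was the lowest of the 3 glioma libraries on both genes, and its Pi3K92E log2 ratio of 1.92 (1.87 to 1.97) compared with 3.20 and 3.16 in the other two. Reads of the constructs and of the resident genes fall on the same gene row and were not separated here. Egfr lies at chr2R:21522420-21559977 on the plus strand, where 5 other annotated genes overlap it, and Pi3K92E at chr3R:20628972-20634732 on the minus strand (dm6 coordinates).

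The driver's own gene, repo, stood at 36.6, 40.9 and 38.2 CPM in the glioma libraries, against 16.7 CPM in Control. These values differed among the glioma libraries by 1.12-fold at most, and the log2 ratios were 1.13 (1.00 to 1.27), 1.29 (1.16 to 1.43) and 1.20 (1.06 to 1.34). On total counts without TMM, and on FPKM or TPM with the pseudocount, repo no longer passed 2-fold in all 3. Neither RNAi target was taken by the rule. Ca-alpha1T stood at 19.1, 16.6 and 17.8 CPM, against 12.9 CPM in Control. The gene slo had 1208, 1154 and 753 counts, against 902 in Control, which are log2 ratios of 0.58, 0.53 and 0.12 (−0.02 to 0.26). Each target was lower in the library labelled with its RNAi than in Glioma, and neither was below Control there. This order depends on the scaling, since on total counts Ca-alpha1T with its RNAi lay above Glioma and slo with its RNAi lay below Control, at a log2 ratio of −0.06. How many of the reads of these genes come from the repo-expressing cells is not given.

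A pair of pigmentation genes that are common visible markers on inserted constructs were also far above Control, although the labels do not say which construct carries which marker. The gene w, which encodes an eye pigment transporter, had 7892, 6406 and 4709 counts in the glioma libraries, and 344 in Control. That was 25.5-, 21.0- and 17.8-fold above Control. The gene y, needed for black cuticle pigment, had 205, 774 and 876 counts, against 15 in Control. The RNAi libraries were above Glioma on y and below it on w.

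A receptor and a transporter gene of the glial blood-brain barrier and a further ABC transporter gene were higher in all 3 glioma libraries, while most other junction and glial genes were not taken. The gene moody, which encodes a G-protein-coupled receptor needed to seal the barrier, stood at 174, 129 and 140 CPM, against 26.0 CPM in Control. Mdr65, a drug efflux transporter gene of the barrier glia, stood at 140, 71.9 and 123 CPM, against 21.8 CPM in Control. Mrp4, which encodes another ABC transporter of the drug resistance family, stood at 360, 523 and 369 CPM, against 25.7 CPM in Control. Mrp4 was the furthest above Control of these, with log2 ratios of 3.81 (3.72 to 3.90), 4.35 (4.26 to 4.44) and 3.85 (3.75 to 3.94). Those of moody were 2.74, 2.31 and 2.43, and those of Mdr65 were 2.69, 1.72 and 2.49.

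Of 28 detected genes on a list of glial identity 3 were higher (repo, moody and Mdr65) and 1 was lower, the gene e, which serves both glia and cuticle. Of all detected genes 2.74% were higher and 1.24% lower. Of 26 detected genes of septate junctions and barrier, moody and Mdr65 were the 2 taken. The median log2 ratios of that list were 0.11, 0.12 and −0.03, near those of all detected genes, and 11 of 26 lay above Control in all 3 glioma libraries by any amount, against 26.8% (3096) of all detected genes. On total counts and on the authors' FPKM and TPM with the pseudocount it was 6 of 26. All detected genes so placed then numbered 2227, 2094 and 2076, fewer as well. Of 28 EGFR and MAP kinase pathway genes and 26 PI3K, insulin and TOR genes, the construct genes Egfr and Pi3K92E were the members taken, 1 in each list.

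Ligand genes of JAK-STAT signalling, the cytokine pathway that flies use in wounding and infection, were among the higher genes. The ligand gene upd2 had 68, 60 and 138 counts in the glioma libraries, and 13 in Control. The ligand gene upd3 had 77, 171 and 141 counts, against 28 in Control. The log2 ratios of upd2 were 2.54 (1.67 to 3.52), 2.38 (1.50 to 3.37) and 3.79 (2.97 to 4.73), and those of upd3 were 1.61 (0.97 to 2.29), 2.79 (2.20 to 3.42) and 2.71 (2.12 to 3.35). These 2 ligands were the members taken among 13 detected JAK-STAT genes, against 3.98% of all detected genes. Ets21C, a transcription factor gene known as a target of JNK stress signalling, stood at 10.5, 12.7 and 33.5 CPM, against 3.11 CPM in Control, and was the 1 member of 22 JNK genes. It was highest with slo RNAi, as upd2 was. With the pseudocount of 1 on the authors' FPKM or TPM, upd2, upd3 and Ets21C did not pass 2-fold in all 3.

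The antifungal peptide gene Drs, a classical output of the Toll pathway, was higher in every glioma library but by very different amounts. It had 153512 counts in Glioma, 4046 under Ca-alpha1T RNAi and 17973 under slo RNAi, against 92 in Control. Its log2 ratios were 10.86 (10.56 to 11.17), 5.63 (5.34 to 5.95) and 7.99 (7.70 to 8.30), and the highest glioma library was 37.4-fold above the lowest. Of 28 detected antimicrobial peptide genes 5 were higher and 1 lower, against 2.74% and 1.24% of all detected genes.

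The other higher peptide genes were low in most libraries and highest with Ca-alpha1T RNAi. BomS3, a Bomanin gene of the Toll response, had 37, 414 and 27 counts, against 3 in Control. BomS1 had 21, 100 and 12 counts, against 2 in Control. BomS6 had 30, 81 and 30 counts, against 14 in Control. The last of the 5, listed as IM4, had 5, 99 and 6 counts, against 2 in Control, and the intervals of its Glioma and slo RNAi ratios, −1.14 to 4.87 and −0.52 to 5.31, include equality. BomS1, BomS6 and IM4 did not pass 2-fold in all 3 on the authors' FPKM or TPM with the pseudocount. BomS1, BomS3 and BomS6 are close copies lying together at chr2R:18383949-18390629, and how their reads were divided is uncertain. Drsl5, a drosomycin-like gene, went the other way, with 5.78, 24.3 and 0.929 CPM against 190 CPM in Control. Of 38 immune recognition and signalling genes PGRP-LF, an inhibitor of the Imd pathway, was the 1 taken, at 8.98, 5.49 and 6.60 CPM against 2.34 CPM in Control, and on FPKM with the pseudocount it did not pass.

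**Figure D2:**
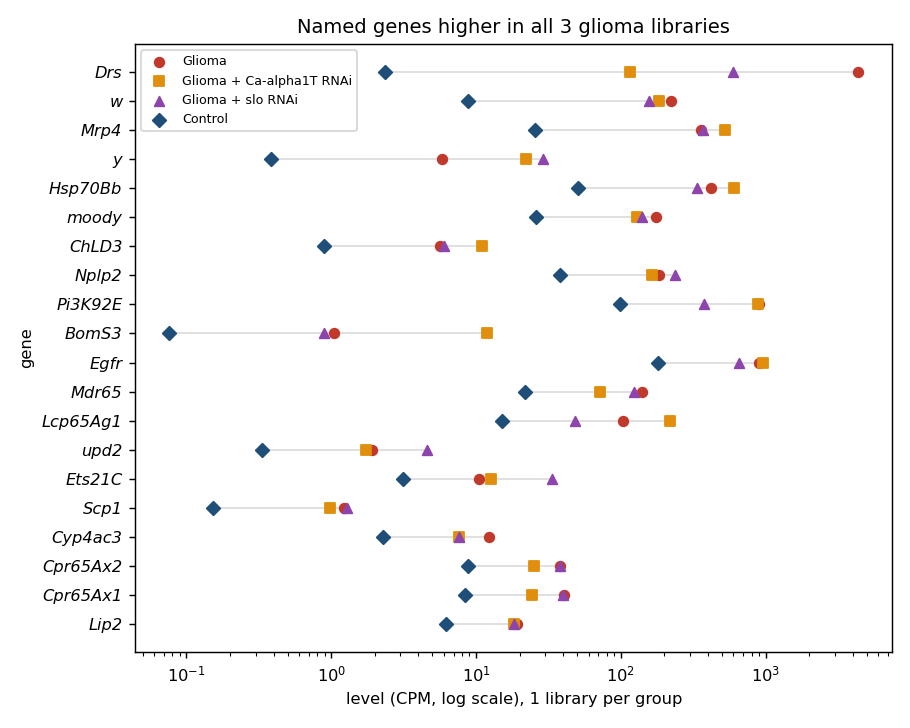
Levels (CPM, log axis) in the 4 libraries of the 20 named genes whose least favourable interval bound lay furthest above Control, 1 symbol per library. The Control diamond is leftmost in every row. The glioma symbols lie close together for Lip2 and far apart for Drs.

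Heat shock genes were taken in both directions. Hsp70Bb, an inducible chaperone gene of the HSP70 family, stood at 417, 607 and 336 CPM, against 50.4 CPM in Control. Hsp70Ba stood at 18.7, 24.8 and 18.4 CPM, against 8.86 CPM in Control. Copies of Hsp70 are nearly identical, so the split between them is uncertain. Small heat shock genes, which also respond to ecdysone at the end of larval life, were lower. Hsp23 stood at 778, 1174 and 658 CPM, against 2722 CPM in Control. Hsp26 stood at 94.1, 75.1 and 55.4 CPM, against 250.4 CPM in Control. Hsp27, Hsp67Ba and Hsp67Bc were lower as well, with log2 ratios between −2.69 and −1.07 over the 3 libraries, and Hsp67Ba did not pass on TPM with the pseudocount. Hsc70-2, a heat shock cognate gene of the HSP70 family, was lower too, and had 112, 33 and 121 counts, against 1018 in Control. In all 2 of 25 detected heat shock genes were higher and 6 lower, against 2.74% and 1.24% of all detected genes.

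Cuticle protein genes were more often higher than lower, as were all detected genes, of which 316 (2.74%) were higher and 143 (1.24%) lower. Of 30 detected Lcp, Ccp and Tweedle genes 6 were higher and 1 lower, and of 44 Cpr genes 4 were higher and 1 lower. With the pseudocount of 1 on the authors' FPKM or TPM, Ccp84Ag, Ccp84Ab, Lcp65Ag2, Twdlalpha, Cpr31A and the lower Lcp65Ad did not pass 2-fold in all 3. The larval cuticle gene Lcp65Ag1 stood at 104, 220 and 48.5 CPM, against 15.1 CPM in Control. Twdlalpha, a Tweedle gene, stood at 3.91, 29.3 and 1.79 CPM, against 0.662 CPM in Control. Ccp84Ab stood at 8.33, 22.5 and 2.85 CPM, against 1.20 CPM in Control. These genes were highest with Ca-alpha1T RNAi and lowest with slo RNAi, whereas Cpr11B, at 104, 52.0 and 53.5 CPM against 19.4 CPM in Control, was highest in Glioma.

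Of the higher cuticle genes 5 lie in a single stretch, chr3L:6132990-6150857, which holds Lcp65Ag2, Lcp65Ag1, Lcp65Ae, Cpr65Ax1 and Cpr65Ax2. Cpr65Ax1 and Cpr65Ax2 had nearly the same values, 40.4, 24.2 and 39.7 CPM against 8.40 CPM in Control, and 38.1, 25.3 and 37.9 CPM against 8.78 CPM in Control. They and the Lcp65Ag genes are close copies, and their single values are uncertain. Lcp65Ad, which lies within the same stretch, was lower, with 64, 59 and 47 counts against 148 in Control. Cpr47Ee was the lower Cpr gene, at 3.43, 4.17 and 1.23 CPM against 15.6 CPM in Control. Among 35 chitin and epidermis genes the deacetylase gene Cda5 and the chitinase gene Cht9 were higher and neo was lower, and with that pseudocount none of the 3 passed. Cht9 had 395, 97 and 9 counts, against 5 in Control, a range of 37.5-fold among the glioma libraries, and its interval under slo RNAi, −0.50 to 3.15, includes equality. ChLD3, a chitin deacetylase-like gene outside that list, had 200, 382 and 181 counts, against 35 in Control.

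Of 33 detected neuropeptide and hormone genes 2 were higher and 1 lower, against 2.74% and 1.24% of all detected genes. Nplp2, a gene for a secreted neuropeptide-like precursor, stood at 184, 163 and 238 CPM, against 37.9 CPM in Control. Eh, the gene for eclosion hormone, had 119, 101 and 105 counts, against 56 in Control. AstCC, an allatostatin gene, was lower, with 42, 49 and 19 counts against 111 in Control, and was not taken with DESeq2 size factors. With the pseudocount on FPKM or TPM, neither AstCC nor Eh passed. Ork1, a potassium leak channel gene, was the 1 gene taken of 41 detected calcium and potassium channel and calcium handling genes, with 57, 73 and 53 counts against 22 in Control, and it did not pass with the pseudocount. The fat body list had 27 detected genes, with median log2 ratios of −0.04, 0.11 and 0.56. The fat body marker gene Lsp2 stood at 1652, 4102 and 4879 CPM, against 3899 CPM in Control, and was not taken. The 2 taken, both higher, were Tsf1, which encodes the iron carrier transferrin, and the growth factor gene Idgf3. Tsf1 stood at 708, 356 and 458 CPM, against 150.3 CPM in Control. Idgf3 stood at 240.4, 203 and 208 CPM, against 100.1 CPM in Control, and it did not pass on total counts or with the pseudocount.

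Of 76 detected detoxification genes 7 were higher and 1 lower, against 2.74% and 1.24% of all detected genes. With the pseudocount on FPKM or TPM, GstD2, GstD4 and Cyp4p1 did not pass. Cyp4ac3, a cytochrome P450 gene, stood at 12.2, 7.59 and 7.66 CPM, against 2.27 CPM in Control. Cyp4p1 stood at 3.51, 8.77 and 48.6 CPM, against 1.48 CPM in Control, a 13.8-fold range among the glioma libraries. The glutathione transferase gene GstD3 stood at 71.7, 43.5 and 102 CPM, against 21.1 CPM in Control. Its neighbour GstD4 was lower, with 29, 27 and 21 counts against 83 in Control. The GstD genes are close copies, as are Ugt37A2 and Ugt37A3, which were the 2 lower members among 25 detected Ugt genes. Ugt37A3, a glycosyltransferase gene, had 145, 90 and 148 counts, against 2185 in Control. Ugt35C1, the 1 higher Ugt gene, stood at 3.26, 5.81 and 4.54 CPM, against 1.60 CPM in Control, and did not pass with the pseudocount.

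Among sensory genes, 3 of 54 detected odorant-binding and chemosensory genes were higher and 1 lower, against 2.74% and 1.24% of all detected genes. The ionotropic receptor gene Ir76a had 735, 841 and 667 counts, against 291 in Control. Ir51a and Obp58d were the other higher members, and the odorant receptor gene Or71a was lower, with 59, 3 and 17 counts against 184 in Control. Of 23 blood cell genes the scavenger receptor gene Sr-CIII was the 1 taken, with 41, 45 and 21 counts against 6 in Control. Of 28 extracellular matrix genes it was Loxl2, a lysyl oxidase gene, with 41, 8 and 10 counts against 2 in Control. The interval of Loxl2 with Ca-alpha1T RNAi, −0.15 to 5.45, includes equality. With the pseudocount, Ir51a, Obp58d, Sr-CIII and Loxl2 did not pass on FPKM or TPM.

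Salivary gland genes were the list with the most lower members for its size, 9 of 16 detected and none higher. Of all detected genes 1.24% were lower and 2.74% higher. Sgs3, a gene for a glue protein that fixes the pupa to its substrate, had 6351 counts in Glioma, 3214 under Ca-alpha1T RNAi and 60868 under slo RNAi, against 266901 in Control. Sgs1 had 80, 228 and 7180 counts, against 40355 in Control. Sgs5bis, by contrast, was low to a like degree in all 3, at 170, 299 and 359 CPM against 3458 CPM in Control. Its log2 ratios were −4.35 (−4.39 to −4.31), −3.53 (−3.56 to −3.50) and −3.27 (−3.30 to −3.24).

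The ecdysone-induced genes Eig71Ea and Eig71Eb, which the salivary gland uses after the glue genes, had few counts in the glioma libraries. Eig71Eb had 3, 5 and 15 counts, against 1671 in Control. Eig71Ea had 2, 7 and 59 counts, against 2433 in Control. The log2 ratios of Eig71Eb were −8.97 (−11.25 to −7.42), −8.21 (−9.83 to −6.98) and −6.42 (−7.26 to −5.69). Eig71Ee was less far down, at 133, 653 and 838 CPM against 2458 CPM in Control. Muc68E, a mucin gene on the same list, had 116, 1502 and 71 counts, against 4433 in Control.

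The glioma libraries differed on the salivary genes. Of the 9 lower members 8 were highest with slo RNAi (6 on the authors' TPM) and Muc68E was highest with Ca-alpha1T RNAi. The median log2 ratios of the 16 genes were −4.20 in Glioma, −2.67 under Ca-alpha1T RNAi and −1.37 under slo RNAi, against 0.00, −0.01 and −0.00 over all detected genes. Their summed level was 2984, 2590 and 15334 CPM, against 29472 CPM in Control. Salivary genes outside the rule did not all share the direction. Sgs5 had 6801, 17904 and 88217 counts, against 117146 in Control, so the slo RNAi library lay close to Control. The new-glue gene ng3 had 31169, 3999 and 84054 counts, against 30890 in Control, lower with Ca-alpha1T RNAi and higher with slo RNAi. Sgs5 and ng3 were chosen after their values were seen. How much salivary gland each sample of heads held is not given, and its part in these ratios was not tested. Sgs7, Sgs8 and Sgs3 lie together at chr3L:11508967-11513402, and Sgs7 and Sgs8 are close copies.

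**Figure D3:**
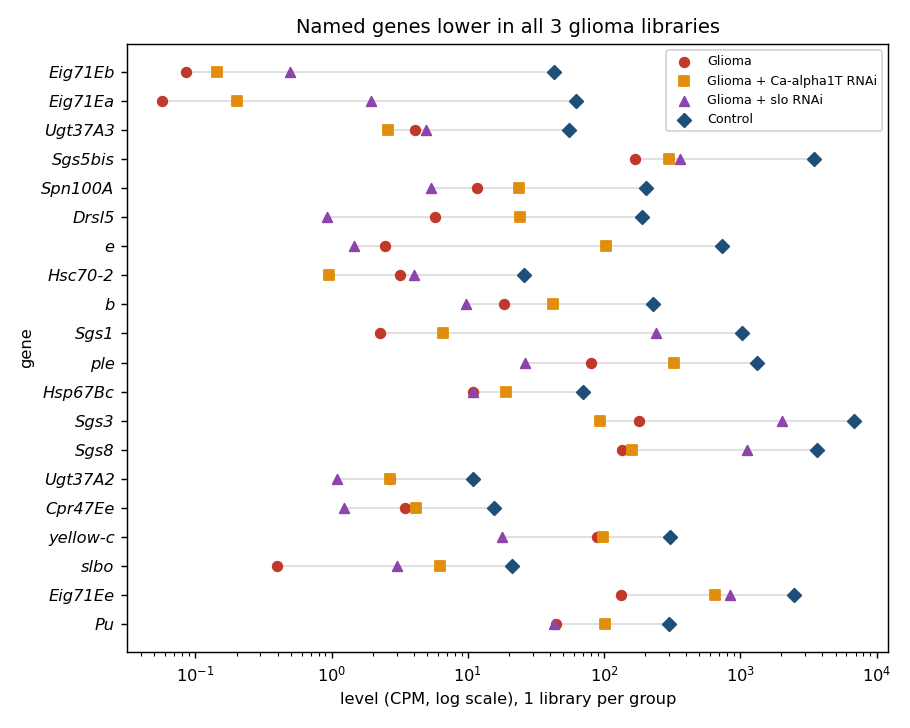
Levels (CPM, log axis) in the 4 libraries of the 20 named genes whose least favourable interval bound lay furthest below Control, 1 symbol per library. The Control diamond is the rightmost in every row, and Sgs1, e and Eig71Ea show the widest separation of the glioma symbols.

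Genes of the ecdysone response were lower or not taken, with none of 27 detected higher and 6 lower. Of these 6, Hr4 and Eip93F did not pass 2-fold in all 3 on the authors' FPKM or TPM with the pseudocount. Of all detected genes 2.74% were higher and 1.24% lower. Larval stage is not given, so a difference in stage between libraries cannot be told apart from one between genotypes. The same holds for the salivary, cuticle and pigmentation genes. The nuclear receptor gene Eip78C stood at 7.25, 55.0 and 5.90 CPM, against 129 CPM in Control. Hr3, a receptor gene that acts between the late larval and prepupal pulses, stood at 4.93, 18.3 and 3.85 CPM, against 53.8 CPM in Control. Hr4 stood at 8.10, 25.7 and 3.91 CPM, against 60.4 CPM in Control. All 3 receptor genes were nearest to Control with Ca-alpha1T RNAi, where their log2 ratios were −1.23 (−1.30 to −1.15), −1.56 (−1.69 to −1.43) and −1.23 (−1.34 to −1.12).

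The other lower members of this list were likewise nearest to Control with Ca-alpha1T RNAi. Eip93F, a transcription factor gene of the metamorphic stages, stood at 2.97, 12.6 and 8.16 CPM, against 27.8 CPM in Control. ImpE2, an ecdysone-inducible gene of imaginal discs, stood at 164, 243 and 105 CPM, against 657 CPM in Control. ImpE3 stood at 8.30, 12.0 and 4.64 CPM, against 37.1 CPM in Control. The receptor gene EcR and the early genes br and Eip74EF were not taken, and their log2 ratios lay between −0.78 and 0.08. The prepupal gene ftz-f1 lay above Control, with log2 ratios of 0.85, 1.33 and 1.10. EcR, br, Eip74EF and ftz-f1 were chosen after their values were seen. The list medians of −0.68, −0.16 and −0.56 compared with 0.00, −0.01 and −0.00 over all detected genes, and 15 of 27 lay below Control in all 3 by any amount, against 28.6% (3299) of all detected genes. Of 21 detected genes of ecdysone synthesis, dib, a P450 gene of that pathway, was the 1 taken, with 135, 134 and 56 counts against 321 in Control, and it did not pass with the pseudocount on either scale.

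A list of pigmentation and dopamine genes had 6 of 28 detected members lower and 2 higher, which were w and y. Of all detected genes 1.24% were lower and 2.74% higher. The gene ple encodes tyrosine hydroxylase, the entry step of dopamine synthesis, and stood at 80.1, 323 and 26.1 CPM, against 1328 CPM in Control. Pu, which encodes the enzyme for its cofactor, stood at 44.1, 101 and 42.6 CPM, against 297 CPM in Control. The gene e encodes the enzyme that joins dopamine to beta-alanine, and had 87, 3600 and 44 counts, against 28819 in Control. The gene b, whose enzyme makes beta-alanine, had 651, 1456 and 293 counts, against 9004 in Control. Thus 4 genes of consecutive or linked steps were lowest with slo RNAi and nearest to Control with Ca-alpha1T RNAi. The log2 ratios of e were −8.22 (−8.54 to −7.91), −2.83 (−2.88 to −2.78) and −8.97 (−9.43 to −8.55). The gene yellow-c stood at 89.2, 97.5 and 17.7 CPM against 307 CPM in Control, and bw, the partner of w in pigment transport, had 15, 30 and 22 counts against 98 in Control.

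Over the whole list the median log2 ratios were 0.06, −0.18 and −0.28, and 20 of the 28 genes were not taken. The gene ple also marks dopamine neurons, and it was the 1 gene taken of 25 detected neuronal genes. Other lower genes with an assigned name included slbo, a C/EBP transcription factor gene, with 14, 216 and 91 counts against 823 in Control. Spn100A, a serpin gene, had 413, 818 and 162 counts, against 7994 in Control.

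**Figure D4:**
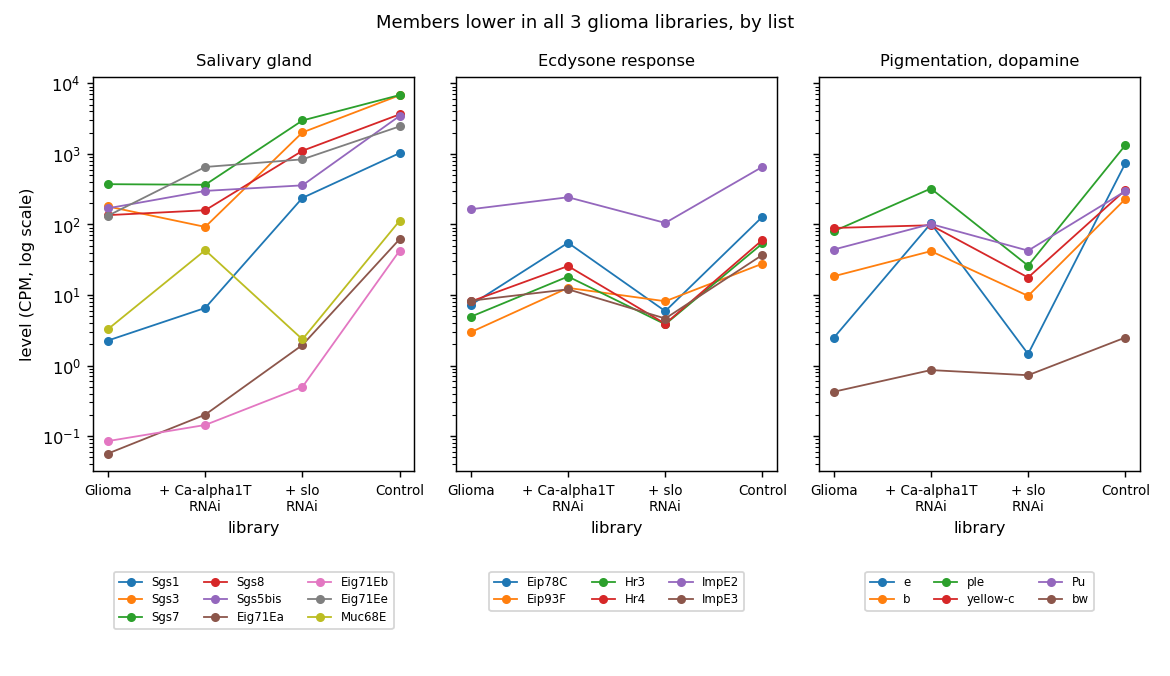
Levels (CPM, log axis) of the lower members of the salivary, ecdysone and pigmentation lists, 1 line per gene, with Glioma, Glioma with Ca-alpha1T RNAi, Glioma with slo RNAi and Control from left to right. Lines join the 4 libraries of a gene and mark no order. All 6 ecdysone and all 6 pigmentation genes peak with Ca-alpha1T RNAi among the glioma libraries, while 8 of 9 salivary genes peak with slo RNAi.

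Among the 3 glioma libraries, the lower genes were most often nearest to Control with Ca-alpha1T RNAi. Of the 143 lower genes 79 (55.2%) had their highest glioma level there, 39 with slo RNAi and 25 in Glioma. Over all detected genes the Ca-alpha1T RNAi library was the highest of the 3 for 34.4%. This share depends on the scaling, since on total counts the library was highest for 99 of the 143 lower genes and for 6890 of all 11534. The 6 lower ecdysone genes and the 6 lower pigmentation genes were highest with Ca-alpha1T RNAi under every scaling tried. Of the 316 higher genes 143 (45.3%) were highest in Glioma, 92 under Ca-alpha1T RNAi and 81 under slo RNAi, against 37.9% of all detected genes highest in Glioma. This ranking depends on the scaling too. The Ca-alpha1T RNAi library was highest for more of the higher genes than Glioma on total counts (126 against 113), on the authors' FPKM (128 against 117) and on their TPM (158 against 93), with a pseudocount of 1 on both of these.

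The spread among the glioma libraries is given as a description only, since the rule chose genes on these same values and the higher genes had few counts. The ratio of the highest to the lowest glioma library had a median of 1.83 over the higher genes, 2.43 over the lower genes and 1.38 over the 11075 other detected genes. Over genes with at least 100 counts in every library the medians were 1.50, 1.96 and 1.30. A ratio under 1.5 was found for 100 higher and 22 lower genes, and one above 4 for 41 higher and 48 lower genes. Among the steadiest well-counted higher genes were repo, Lip2 and fru. Lip2, a lipase gene, stood at 19.1, 18.2 and 18.3 CPM, against 6.24 CPM in Control. The gene fru, a transcription factor gene of sexual behaviour that neurons express, stood at 193, 195 and 183 CPM, against 80.7 CPM in Control, and did not pass 2-fold with the pseudocount on FPKM or TPM. CG30154 stood at 27.1, 29.2 and 27.3 CPM, against 4.51 CPM in Control. The steadiest lower gene was rdgA, a diacylglycerol kinase gene, at 21.5, 20.1 and 19.7 CPM against 43.6 CPM in Control, and 15 other annotated genes overlap it. At the other end CG14664 had 3, 645 and 11 counts, against 2571 in Control, a range of 218-fold among the glioma libraries, and Sgs1 had one of 105-fold.

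At the 3.98% taken over all detected genes a small list holds few or none. Several lists that describe tissue or growth had no gene taken in either direction. These were 28 neuroblast genes, 44 gut genes, 7 lysozyme genes, 26 glycolysis genes, 36 respiration genes, 42 cell cycle genes, 27 Notch genes, 28 genes of the Wnt, Hedgehog and Dpp pathways, 21 eye disc genes and 17 apoptosis genes. By direction, 14 neuroblast, 22 cell cycle, 16 Notch and 18 Wnt, Hedgehog and Dpp genes lay below Control in all 3 glioma libraries. In the same order 4, 2, 2 and 1 lay above it in all 3, and of all detected genes 28.6% lay below. On the authors' TPM with the pseudocount the counts below Control were 9, 21, 11 and 9. All 36 respiration genes lay above Control in Glioma and under slo RNAi, and 1 did under Ca-alpha1T RNAi. This depends on the scaling, since 3 lay above Control in all 3 glioma libraries on total counts. On the authors' TPM with the pseudocount 10 did. The muscle list also came out differently by the 2-fold rule and by direction. Msp300, which encodes a large nuclear envelope and muscle protein, was the 1 gene of 31 taken. It stood at 795, 688 and 669 CPM against 316 CPM in Control, and it did not pass on total counts. Yet 29 of the 31 lay above Control in all 3 glioma libraries, whether scaled by TMM, by DESeq2 size factors, by total counts or as deposited FPKM, and 30 did so as deposited TPM. The muscle medians were 1.65 in Glioma, 0.39 under Ca-alpha1T RNAi and 1.02 under slo RNAi (log2 ratios). Their summed level was 76583, 31600 and 48217 CPM, against 23670 CPM in Control. How far unequal amounts of muscle in the dissected heads enter the other ratios was not tested.

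Of the 316 higher genes 200 are known by a clone or RNA number alone, and of the 143 lower genes 79, as are 5027 of all 11534 detected genes. Ranked by the glioma library nearest to Control, the lower gene furthest from it was one of them, CG4151, with 2, 3 and 7 counts against 2156 in Control. Among the higher genes CG6357 stood at 474, 354 and 417 CPM against 38.9 CPM in Control. CG4151 and CG6357 were chosen after their values were seen. Protein-coding genes made up 279 of the higher and 125 of the lower genes. Long noncoding RNAs gave 23 higher and 8 lower of 335 detected, and antisense RNAs 10 and 8 of 205. Of all detected genes 2.74% were higher and 1.24% lower. lncRNA:CR31781 stood at 107, 86.0 and 86.2 CPM, against 32.5 CPM in Control. asRNA:CR45210 had 187, 594 and 516 counts, against 4359 in Control, and lies across another gene. Libraries were made with a stranded kit, but whether counting used the strand is not given, so reads of overlapping genes may be shared. Of the higher genes 147 overlap another annotated gene, and of the lower genes 71. The share of all detected genes that overlap another was not computed.

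Some of the genes lie next to each other. Of 315 higher genes with a position 70 (22.2%) lay within 10 kb of another higher gene, in 29 runs. Of 143 lower genes 31 (21.7%) lay so, in 13 runs. The same share for equal numbers of detected genes was not computed, so no clustering is read from these. The lower run with most genes was the small heat shock cluster at chr3L:9371511-9385694, with Hsp67Bc, Hsp26, Hsp67Ba, Hsp23 and Hsp27. Eig71Ea, Eig71Eb and Eig71Ee form another at chr3L:15649126-15656010. Chromosome arm 3L held 30.1% of the lower genes and 22.2% of the higher ones, against 19.6% of detected genes. Arm 3R held 30.1% and 23.1%, against 24.6% of detected genes. The X chromosome held 10.5% and 12.7%, against 16.3% of detected genes.

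The genes on either side of the 2-fold limit had nearly equal ratios. Among genes with at least 100 counts in every library, CG3091, CG1648, CG12607 and Rbp9 lay just inside on the higher side, with nearest log2 ratios of 1.01, 1.01, 1.01 and 1.02. Just outside lay lncRNA:CR46194, CG43897, CG9757 and CG10407, at 0.99, 0.99, 0.98 and 0.98. On the lower side CG6218, MESR6, P5cr-2 and rdgA lay just inside, none of them past −1.02. CG3819, CG8420, AhcyL2 and CG42460 lay just outside, none of them nearer to 0 than −0.98. The counting interval of Rbp9 with Ca-alpha1T RNAi, 0.94 to 1.09, spans the limit.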

How the data were processed

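Larval heads gave 4 poly-A RNA libraries, 1 per group. Per the submitters' processing notes, which give no roles, the tools included HISAT2 2.1.0 and StringTie 2.1.3b, besides Trimmomatic 0.38, FastQC 0.11.7 and edgeR, on the build dm6. Per the file headers, the deposited table holds read counts, FPKM and TPM per gene and library. It also holds levels on a log scale that the authors normalized, taken here as log2 from their values, a signed fold change (score) and p-values of the authors' comparisons of single libraries. The log2 levels, scores and p-values the authors deposited were not used. Ratios were computed from counts on TMM-scaled libraries (edgeR 4.0.16, R 4.3.3), with no prior count, and their exact conditional binomial 95% intervals with scipy 1.17.1 (Python 3.11.15). Totals per library were 31594447 to 38826243 counts. Genes were taken by size (2-fold, 10 counts), so no test was made. The procedure was tested on simulated counts with counting error alone, so that test does not bear on variation between larvae or libraries.

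The genes, the 33 lists (1030 entries, 939 matched) and the rules for naming were chosen with earlier results of these data known. Named are the manipulated genes and visible markers, the 20 genes per side with the furthest interval bound (bare clone and RNA numbers left out), up to 6 per list, 4 genes each side of the limit and 8 per side with the smallest and largest spread. Other genes are said to be chosen after their values were seen. This holds for Hsp70Ba, Hsp27, bw and Sgs7 too, which rank below the first 6 of their lists. Alternatives were DESeq2 size factors (1.42.0), total counts, a pseudocount of 1 added to deposited FPKM or TPM, other limits of count and fold, intervals, and leaving out each glioma library. FPKM and TPM without a pseudocount were added after seeing the data. Positions are from an Ensembl annotation with dm6 coordinates. No genome sequence was used here.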

Additional observations from a re-analysis of the deposited data

How the results depend on the processing

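No paired analysis was possible because each group is 1 library. With DESeq2 size factors 319 genes were higher and 139 lower, with total counts 273 and 170, with no filter on low counts 334 and 149, with at least 50 counts 227 and 122, and with each interval excluding equality 259 and 135, all within 1.5 times the 316 and 143 reported. The count moved further under the settings that follow. With the authors' FPKM and a pseudocount of 1 it was 66 higher and 89 lower, and with their TPM 101 and 90. Without the pseudocount, a choice made after seeing the data, these were 273 and 180 on FPKM and 283 and 158 on TPM, so the pseudocount shrank the ratios of low genes. By construction fewer genes pass stricter limits, with 102 and 62 at 3-fold, 50 and 39 at 4-fold, and 110 and 89 with each interval wholly past 2-fold. More pass when fewer libraries must pass. Leaving out 1 glioma library gave 419 to 562 higher and 221 to 303 lower genes, most without Glioma with Ca-alpha1T RNAi (562 and 303), with 419 and 246 without Glioma and 476 and 221 without Glioma with slo RNAi. The geometric mean of the 3 libraries gave 780 and 493. No named gene taken changed sign under the 4 scalings. Of 135 named genes taken, 132 passed with DESeq2 size factors, 119 with total counts, 71 with FPKM and 75 with TPM, both with the pseudocount. The median over all genes shifted by −0.23, 0.05 and −0.18 (log2) on total counts, in Glioma and in its Ca-alpha1T and slo RNAi libraries. With 1 Control library, no setting can separate a difference between genotypes from one between these libraries. Depth limits the 98 higher genes with under 10 counts in Control, whose folds are the least certain.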

Other observations

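The gene groups that follow were put together after their values were seen, so their counts are a description of genes picked for how they moved. Of 34 detected genes for cilia, intraflagellar transport and mechanosensory neurons 8 were higher in all 3 glioma libraries and none lower. Of all detected genes 2.74% were higher and 1.24% lower. The 8 were BBS4, BBS8, BBS9, IFT52, Ttc26, nompC, nompA and Tektin-C. The intervals of IFT52 under Ca-alpha1T RNAi, −0.17 to 2.30, and of Tektin-C under slo RNAi, −0.52 to 5.31, include equality. BBS8, a gene of the ciliary BBSome, had 127, 187 and 109 counts (Glioma, then Ca-alpha1T RNAi, then slo RNAi), against 64 in Control. The mechanosensory channel gene nompC had 208, 122 and 110 counts, against 68 in Control. All 8 had at most 68 counts in Control, and Rfx, a transcription factor gene of ciliated neurons, was near Control with log2 ratios of 0.02, −0.11 and −0.23. The medians of the 34 genes were 0.53, 0.35 and 0.40, and 0.10, 0.13 and 0.03 on the authors' FPKM with a pseudocount of 1.

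Serpin genes, whose products inhibit proteases, were taken in both directions, with 3 of 19 higher and 2 lower. Of all detected genes 2.74% were higher and 1.24% lower. Spn31A, Spn43Ad and Spn47C were higher. Spn47C stood at 16.6, 31.8 and 19.1 CPM, against 7.03 CPM in Control. Spn100A and Spn43Aa were lower, and Spn43Aa stood at 48.5, 96.0 and 34.4 CPM, against 215 CPM in Control. Both lower serpins were highest with Ca-alpha1T RNAi and lowest with slo RNAi among the glioma libraries.

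Other single genes, also chosen after their values were seen, showed wide differences. The light sensor and clock gene cry had 51, 62 and 110 counts, against 320 in Control. The homeotic gene Abd-B, which patterns posterior segments, had 52, 10 and 29 counts, against 168 in Control. The extracellular matrix gene prc had 190, 85 and 77 counts, against 25 in Control. The sodium channel gene ppk13 of the pickpocket family, one of the genes with the largest spread, stood at 11.9, 54.0 and 18.1 CPM, against 5.02 CPM in Control.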
